A study of Mus musculus with 8 samples.

Results

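Gene expression in liver and small intestine was compared with that in kidney and lung, to see which genes stood apart in the pair of organs that derive from the embryonic gut tube and handle dietary lipid and ingested chemicals. The data were bulk RNA-seq libraries of polyadenylated RNA from whole tissue of males of the inbred laboratory strain C57BL/6J, aged 6 to 10 weeks. Each of the 4 tissues was excised from every mouse, washed, ground in liquid nitrogen and sequenced as 2 libraries from separate mice, which gave 4 libraries on each side of the comparison and 8 in all. No treatment is stated and no genotype or time point differed between the groups, and the lung also arises from the embryonic foregut, so the sides are named here by their organs. A gene was called different when limma gave an adjusted p below 0.05 and a difference over 1 on the log2 scale. It was called separated when its lowest library on 1 side lay above its highest library on the other, and the gap is the distance between those 2 libraries. Of 16328 genes tested, 1031 (6.31%) were separated with liver and small intestine higher and 1365 (8.36%) with kidney and lung higher. These counts depended on how libraries were scaled to each other, and were 334 and 2151 on the FPKM as deposited and 251 and 3389 after scaling to the sum without mitochondrial genes.

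Absorptive enterocytes and hepatocytes are the epithelial cells that package lipid for the blood. Enterocytes re-esterify dietary fatty acids and load them on chylomicrons, hepatocytes secrete very low density lipoproteins, and both particles carry apolipoprotein B lipidated by the microsomal triglyceride transfer protein. The same cells meet ingested chemicals first, and they oxidize them with cytochromes P450, hydrolyse them with carboxylesterases and couple them to glucuronate, sulfate or glutathione. Kidney and lung epithelia in turn share channels for sodium and pumps for protons, and both organs filter or exchange across a capillary wall joined to an epithelial basement membrane.

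The promoters of 6 genes are shown. Apoa1 and Fabp1 are genes with wide gaps, and Cyp2c68 and Cyp2c40 are members of a shared gene cluster. Ugt1a1 and Col4a4 are further genes with a match to a letter string. Each run is the part of the 250 bases before the RefSeq start (build GRCm38.p6) that also lies before the gene's start in the GENCODE M21 annotation, 5′ to 3′ on the gene's own strand, and capitals mark a match to one of the letter strings given after them. Apoa1 (chr9:46228380-46228579, plus strand) and Fabp1 (chr6:71199629-71199826, plus strand) had the 2 widest gaps and no match, Cyp2c68 (chr19:39741102-39741351, minus strand) and Cyp2c40 (chr19:39812815-39813064, minus strand) are cluster neighbours with one match each, Ugt1a1 (chr1:88211709-88211958, plus strand) has a match on the opposite strand, and Col4a4 (chr1:82586850-82587099, minus strand) belongs to the kidney and lung side.
Apoa1: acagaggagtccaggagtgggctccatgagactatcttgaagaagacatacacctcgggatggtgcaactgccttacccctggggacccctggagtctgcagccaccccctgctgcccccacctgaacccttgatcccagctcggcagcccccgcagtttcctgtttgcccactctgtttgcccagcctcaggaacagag
Fabp1: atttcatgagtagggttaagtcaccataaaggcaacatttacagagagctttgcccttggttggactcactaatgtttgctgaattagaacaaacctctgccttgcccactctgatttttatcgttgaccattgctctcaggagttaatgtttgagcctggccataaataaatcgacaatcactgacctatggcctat
Cyp2c68: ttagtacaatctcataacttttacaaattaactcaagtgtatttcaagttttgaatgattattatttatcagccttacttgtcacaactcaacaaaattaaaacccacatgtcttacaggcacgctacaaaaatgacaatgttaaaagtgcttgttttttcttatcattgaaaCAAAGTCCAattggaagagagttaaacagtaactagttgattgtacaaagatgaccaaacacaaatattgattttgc
Cyp2c40: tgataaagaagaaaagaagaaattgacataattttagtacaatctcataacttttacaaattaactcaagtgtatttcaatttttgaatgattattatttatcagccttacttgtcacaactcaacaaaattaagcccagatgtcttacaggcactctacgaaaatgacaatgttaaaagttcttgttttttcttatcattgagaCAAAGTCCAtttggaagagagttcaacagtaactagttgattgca
Ugt1a1: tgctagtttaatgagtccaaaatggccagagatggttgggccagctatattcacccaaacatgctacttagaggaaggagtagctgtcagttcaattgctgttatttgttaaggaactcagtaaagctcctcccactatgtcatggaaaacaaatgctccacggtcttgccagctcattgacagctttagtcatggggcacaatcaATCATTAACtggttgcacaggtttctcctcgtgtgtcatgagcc
Col4a4: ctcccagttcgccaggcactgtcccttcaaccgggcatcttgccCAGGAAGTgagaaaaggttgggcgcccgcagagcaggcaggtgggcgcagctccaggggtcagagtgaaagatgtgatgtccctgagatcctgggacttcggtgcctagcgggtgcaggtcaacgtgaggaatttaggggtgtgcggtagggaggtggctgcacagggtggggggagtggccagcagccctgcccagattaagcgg

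Values are FPKM, which counts fragments per kilobase of transcript relative to library size, rescaled between libraries by the median of ratios, and every difference is on the log2(FPKM + 1) scale, which understates changes of low genes. Adjusted p-values are from limma with Benjamini-Hochberg adjustment over all genes tested, and a mean is given with its SD (n = 2). The libraries held 9164187 to 21444675 reads on genes, and 3 reads on a gene with 1 kb of exons correspond to a rescaled FPKM of 0.127 to 0.594, below which a value is no different from 0 at this depth. Counting error alone sets this floor. The tissue labels matched their markers, since all 6 hepatocyte, 6 enterocyte and 6 proximal tubule markers and all 6 alveolar type 2 cell markers were highest in liver, small intestine, kidney and lung, respectively. Abundant genes of 1 tissue were also found at low levels in every library of the other tissues, for example Alb at 0.0338% to 0.215% and Defa24 at 0.0428% to 0.218% of the deposited FPKM of their own tissue, and Umod at up to 0.420% in lung. In whole tissue, fewer cells of a type and less RNA per cell cannot be told apart.

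In all, 1721 genes (10.5% of those tested) were called higher in liver and small intestine and 1576 (9.65%) were called higher in kidney and lung. These counts were 1124 and 3121 on the deposited FPKM and 1033 and 3637 after the sum scaling. Of the 1721 and 1576 genes, 578 (3.54% of those tested) and 741 (4.54%), respectively, were also separated, so that all 4 libraries of the higher side lay above all 4 of the other. Of the 578, 289 remained separated on the deposited FPKM and 246 after the sum scaling, while 662 and 730 of the 741 did. The remaining 1143 and 835 called genes overlapped between the sides. Most of them were led by a single tissue on the log2(FPKM + 1) scale, with liver over 2-fold above small intestine in 587 of the 1143 and small intestine over 2-fold above liver in 444, and with lung over 2-fold above kidney in 486 of the 835 and kidney over 2-fold above lung in 290. Among the 578 separated genes, liver and small intestine lay within 2-fold of each other in 284 (49.1%), and among the 741, kidney and lung did so in 339 (45.7%).

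The widest gaps were on the side of liver and small intestine, while the typical gap was alike on both. The gap was at least 4 on the log2 scale for 26 of the 578 genes and for 0 of the 741, and its largest values were 8.17 and 3.88. The gap was at least 1 for 165 and 173 genes, while the medians were 0.51 and 0.54, so many genes were separated by little. Tfe3, with 2.57 in its lowest small intestine library and 2.56 in its highest lung library, lay just inside the rule, and Smarcd2, with 20.2 and 14.8 in liver and 14.8 in lung replicate 2, was just outside. In the other direction Fam161b was just inside and Polr1c just outside.

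**Figure D1:**
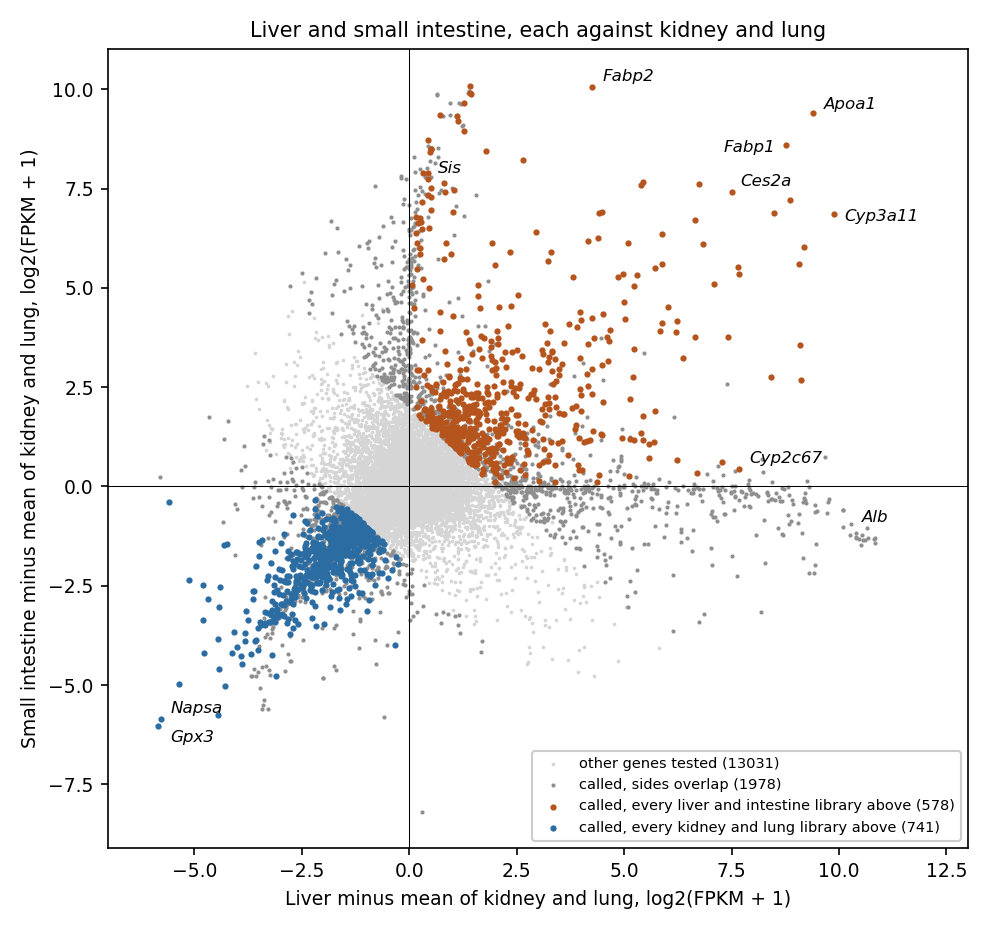
Difference of each gene from the mean of kidney and lung in liver (x axis) and in small intestine (y axis), both on the log2(FPKM + 1) scale, for the 16328 genes tested. The 578 orange genes were called and separated with liver and small intestine higher and the 741 blue genes with kidney and lung higher, and the 1978 dark grey genes were called while the sides overlapped, many of them along an axis where a single organ differed.

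These p-values measure the spread between libraries of the same tissue, and say nothing of how other organs would differ. When each tissue was reduced to its mean and 2 tissues were compared with 2, 0 genes passed in limma, 534 had an unadjusted p under 0.05, and the smallest adjusted p was 0.569. The balance of directions also depended on the scaling. With liver and small intestine higher in 52.2% of the calls here, the share was 26.5% on the deposited FPKM and 22.1% when libraries were scaled to their sum without mitochondrial genes, where the median difference of all genes was -0.46 and -0.56.

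Apoa1, the main protein of high density lipoprotein, had the widest gap of all genes tested. It lies at chr9:46228580-46230466, plus strand (GRCm38). Its FPKM was 5759.8 and 4111 in liver, 4692 and 4964 in small intestine, 3.31 and 13.3 in kidney and 8.92 and 3.33 in lung. The 4 liver and intestine libraries were all at or above 4111 and the other 4 at or below 13.3, and the log2 difference was 9.40 (SE 0.42, adjusted p = 2.46e-06). Liver and small intestine did not differ from each other in this gene by the test (log2 difference 0.01, adjusted p = 1).

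The other apolipoproteins differed in which organs held them. Of 15 tested, 13 were called higher in liver and small intestine and 0 lower, 5 were separated, and the median log2 difference was 3.93 against 0.01 for all genes. Apoc3, an inhibitor of triglyceride clearance encoded beside Apoa1 (chr9:46232933-46235636, minus strand), had 1623 and 1463 in the liver and 548 and 476 in the small intestine, and 4.12 and 8.43 in kidney and 2.23 and 1.22 in lung. All 4 libraries of the higher side were at least 476, and the difference was 7.69 (SE 0.23, adjusted p = 9.81e-07). Apob, the structural protein of chylomicrons and very low density lipoproteins, had 179 and 119 in liver, 44.4 and 58.3 in small intestine, 4.27 and 2.64 in kidney and 0.219 and 0.101 in lung. Its groups did not overlap, with kidney above lung on the lower side (difference 5.28, SE 0.19, adjusted p = 1.2e-06). Apoa4, a chylomicron protein, was led by small intestine at 496 ± 70.6 against 9.40 ± 0.752 in liver, so that liver held 1.90% of the intestinal level. Apoc2, the activator of lipoprotein lipase, was low at 5.12 and 3.05 in the liver and 1.19 and 1.14 in the small intestine and was listed at 0 in the 4 kidney and lung libraries. Apoa2, Apoa5, Apoc1, Apoc4, Apoe, Apof, Apoh and Apon were called without being separated. Apoe, for example, had 12459 and 10093 in liver but 131 and 91.6 in small intestine, below the 212 and 183 of lung.

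Genes that assemble these particles were called in part through both organs and in part through 1. Of 28 genes for lipoprotein assembly and glyceride synthesis, 20 were called higher in liver and small intestine and 1 lower, 11 were separated, and the median difference was 1.54. Of the 20, 9 overlapped between the sides, and small intestine was over 2-fold above liver in 8 and liver over 2-fold above small intestine in 6. The 20 calls were 12 on the deposited FPKM and 12 after the sum scaling, where 7 were separated. Mttp, the transfer protein that lipidates apolipoprotein B, had 47.8 and 43.3 in liver, 235 and 278 in small intestine, 1.92 and 2.53 in kidney and 0.665 and 0.336 in lung. Small intestine was above liver and both were far above the other side (difference 5.64, SE 0.14, adjusted p = 9.2e-07). Pla2g12b, a catalytically inactive phospholipase homologue needed for lipoprotein secretion, had 39.2 and 35.9 in the liver and 44.7 and 54.7 in the small intestine and at most 0.546 in the other libraries, a difference of 5.16 (SE 0.14). Tm6sf2, another protein of lipoprotein lipidation, had 29.6 and 22.6 in liver, 154 and 169 in small intestine and no more than 2.76 elsewhere. Among the enzymes of triglyceride synthesis, Agpat2 and Acsl5 were separated by gaps of 2.20 and 1.69. Both terminal acyltransferases were separated more narrowly and were led by different organs. Dgat1 had 11.9 and 11.7 in the liver and 289 and 306 in the small intestine, beside 8.38 and 11.1 in kidney (gap 0.08). Dgat2 had 228 and 173 in the liver and 59.2 and 80.2 in the small intestine, beside 37.3 and 46.8 in kidney (gap 0.33). Surf4, Mia3 and Sar1b, which act in the export of large cargo from the endoplasmic reticulum, were separated with gaps of 0.60, 0.55 and 0.33.

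Fatty acid binding proteins were divided between the sides. Fabp1, the cytosolic carrier named for liver (chr6:71199827-71205023, plus strand), had 3820.4 and 3518 in liver, 4204 and 2531 in small intestine, 2.71 and 12.1 in kidney and 11.5 and 7.53 in lung. Its 2 intestinal libraries spanned the liver values, and the difference was 8.67 (SE 0.40, adjusted p = 2.74e-06) with a gap of 7.59. Fabp2, the intestinal paralogue, had 4062 and 5873 in small intestine and 86.2 and 88.1 in liver, where the mean was 1.75% of the intestinal one, and at most 8.10 in kidney and lung. Fabp3, the paralogue of heart and muscle, moved the other way, with 25.3 and 47.4 in kidney and 8.59 and 8.93 in lung against 0.241 and 0.941 in the liver and 0.589 and 0 in the small intestine (difference -3.74, SE 0.26, adjusted p = 1.65e-05). The uptake genes Cd36 and Slc27a1 were also higher in kidney and lung. Cd36, a scavenger receptor that takes up long chain fatty acids, had 90.5 and 108 in kidney and 191 and 189.8 in lung against 20.1 and 11.04 in the liver and 28.8 and 26.7 in the small intestine, a difference of -2.69 (SE 0.19). Lpl, the lipase that frees fatty acids from circulating lipoproteins, was likewise higher in kidney at 44.3 and 54.5 and lung at 11.3 and 8.13 than in liver at 2.65 and 2.10 and small intestine at 0.778 and 0.734 (difference -3.25, SE 0.14). Of the 14 genes of fatty acid uptake and binding, 6 (42.9%) were called higher in liver and small intestine and 3 (21.4%) lower. The shares of all genes tested were 10.5% and 9.65%. Separated were 2 (14.3%) and 3 (21.4%), beside 6.31% and 8.36% of all genes tested, and the median difference was 0.22.

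Sterol export and esterification had wide gaps. Of 28 sterol genes, 14 (50%) were called higher in liver and small intestine and 3 (10.7%) lower, beside 10.5% and 9.65% of all genes. Separated were 6 (21.4%) and 1 (3.57%), beside 6.31% and 8.36%. The 14 calls were 9 on the deposited FPKM and 8 after the sum scaling. Abcg5 and Abcg8, which form the heterodimer that pumps sterols into bile and gut lumen, moved as a pair. Abcg5 had 37.8 and 36.8 in the liver and 60.5 and 97.99 in the small intestine and at most 0.209 elsewhere, and Abcg8 had 34.99 and 26.97 and 34.8 and 49.2 and at most 0.151 elsewhere. Their differences were 5.61 (SE 0.16) and 5.06 (SE 0.15), with adjusted p-values of 9.81e-07 and 9.81e-07. Soat2, which esterifies cholesterol for lipoproteins, had 24.1 and 25.1 in liver, 83.3 and 99.3 in small intestine and at most 0.434 in the other libraries. The synthesis enzyme Dhcr7 was separated by a narrower gap of 0.65.

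Fatty acid oxidation and bile acid genes were mostly called through liver. Of 38 genes for fatty acid oxidation and ketogenesis, 25 (65.8%) were called higher in liver and small intestine and 3 (7.89%) lower. The shares of all genes tested were 10.5% and 9.65%. Liver was highest by over 2-fold in 18 of the 25. Separated were 4 (10.5%, beside 6.31% of all genes tested), namely Hadha, Slc25a20, Acaa1a and Hsd17b4. The number of calls depended on the scaling, as the 25 calls were 16 after quantile scaling, 12 on the deposited FPKM and 7 after the sum scaling, where 1 gene was separated. Hadha, the alpha subunit of the mitochondrial trifunctional protein, had 46.4 and 39.1 in liver, 27.9 and 26.99 in small intestine, 14.6 and 14.2 in kidney and 6.69 and 6.48 in lung (difference 1.70, SE 0.11). Of 23 bile acid genes, 16 were called higher and 0 lower, and 3 were separated. These were the sterol hydroxylase Cyp27a1, the basolateral exporter Abcc3 and the lipid flippase Atp8b1, with gaps of 0.39, 1.18 and 1.02. The 16 calls were 9 without liver replicate 1 and 8 without liver replicate 2, and the separated genes were 5 without small intestine replicate 1, 5 without kidney replicate 2 and 1 after the sum scaling. The bile acid uptake carrier Slc10a1 and the canalicular pump Abcb11 were at 326 ± 2.42 and 111 ± 15.3 in liver and below 1 in every other library.

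**Figure D2:**
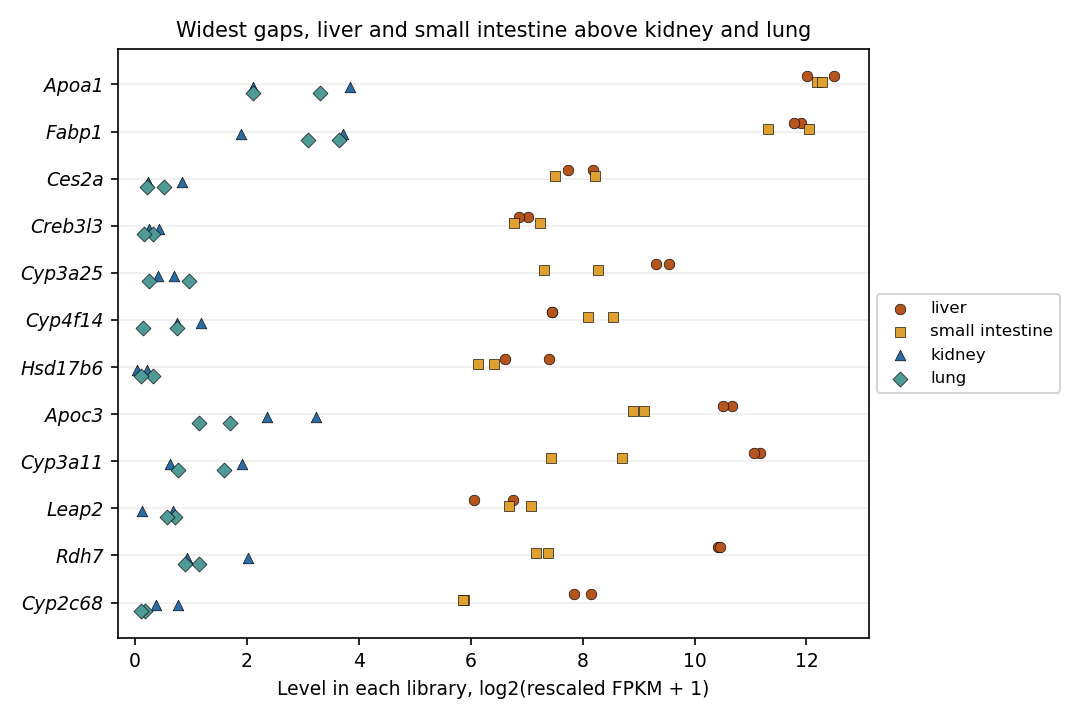
Level in every library of the 12 genes with the widest gaps among those with a mean FPKM of at least 10 on the higher side. Gm, Rik and mitochondrial symbols were left out. Values are log2(rescaled FPKM + 1), for liver (circles), small intestine (squares), kidney (triangles) and lung (diamonds). Rows are ordered from the widest gap (Apoa1, 8.17) to the narrowest shown (Cyp2c68, 5.10). All 4 liver and intestine points lie to the right of all kidney and lung points in each row.

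Most cytochromes P450 of the xenobiotic families were called higher in liver and small intestine, the larger number of them led by liver. Among 45 genes of families 1 to 3 and their electron donors, 32 were called higher and 4 lower, 15 were separated, liver was over 2-fold above small intestine in 24 of the 32, and the median difference was 2.25. The 32 calls were 19 without liver replicate 1 and 21 without liver replicate 2. Cyp3a11, the abundant drug-oxidizing member of family 3 (chr5:145854426-145879964, minus strand), had 2291 and 2132 in liver, 172 and 416 in small intestine, 0.535 and 2.77 in kidney and 1.999 and 0.709 in lung. Every liver library was above both intestinal ones, and these were above 100 while the other side stayed below 3 (difference 8.37, SE 0.38, adjusted p = 2.67e-06). Its neighbour Cyp3a25 (chr5:145977194-146009618, minus strand) had 745 and 637 in liver, 157 and 308 in small intestine and below 1 elsewhere, with a difference of 8.03 (SE 0.25). Cyp3a13, a further family member, was led instead by small intestine at 296 and 375 against 79.97 and 65.5 in liver.

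The Cyp2c cluster showed the same order with more variety. Cyp2c68 (chr19:39688834-39741054, minus strand), with its promoter shown above, had 283 and 229 in liver, 57.9 and 57.3 in small intestine, 0.290 and 0.701 in kidney and 0.131 and 0.0739 in lung. The 2 intestinal libraries were alike and lay between liver and the other side (difference 6.58, SE 0.14, adjusted p = 8.71e-07). Cyp2c40 had 76.6 and 37.7 in the liver and 3.48 and 2.37 in the small intestine, and Cyp2c29 had 885 and 664 and 10.9 and 22.3. Cyp2c67 was separated although its small intestine level, 0.560 and 0.488, was 0.229% of that of liver. Cyp2c55 alone of the separated Cyp2c genes was led by small intestine, with 40.7 and 76.5 against 12.9 and 6.83 in liver. Counts of such near-identical genes are uncertain, because the treatment of reads that map to several members is not stated, and the same holds for the Cyp3a, Ugt, Gstm, Gstp, Ces, Akr1c and Amy2 genes.

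Several P450 genes did not follow this division. Cyp1a2, an oxidase of aromatic amines, had 467 and 409.6 in liver and below 1 in every other library. Cyp2e1, the ethanol-inducible form, had 3883 and 2650.4 in liver and 416 and 484 in kidney, but 2.79 and 1.998 in small intestine and 8.18 and 4.57 in lung, so that its difference of 0.87 did not reach 1. Por, the reductase that serves all microsomal P450 enzymes, was not called, with 119.9 and 46.4 in liver, 35.9 and 50.1 in small intestine, 55.3 and 61.3 in kidney and 35.01 and 31.8 in lung (difference 0.35, SE 0.29, adjusted p = 0.355). Cyp4f14, a fatty acid hydroxylase outside those families (chr17:32905070-32917342, minus strand), had 174 and 175 in liver, 273 and 370.3 in small intestine and at most 1.27 elsewhere, a gap of 6.27.

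Other enzymes of oxidation and hydrolysis were divided by family. Of 51, 33 (64.7%) were called higher in liver and small intestine and 5 (9.80%) lower, beside 10.5% and 9.65% of all genes. Separated were 11 (21.6%) and 3 (5.88%), beside 6.31% and 8.36%, and the median difference was 2.18. Ces2a, a carboxylesterase that hydrolyses ester drugs and neutral lipid (chr8:104734003-104741634, plus strand), had 292 and 212 in liver, 180.3 and 298 in small intestine, 0.173 and 0.786 in kidney and 0.432 and 0.162 in lung. The ranges of liver and small intestine overlapped, and the side difference was 7.46 (SE 0.23, adjusted p = 9.81e-07). Ces2e and Ces2g were separated in the same direction, whereas none of the Ces1 genes tested was. Ces1d, for example, had 146 and 187 in kidney and 138 and 127 in lung, between 472 and 495 in the liver and 10.6 and 7.78 in the small intestine. The aldo-keto reductases Akr1c12, Akr1c13 and Akr1c19, which reduce steroids and carbonyls, were separated with gaps of 4.41, 3.25 and 2.19. Adh4 and Aldh1b1, enzymes of alcohol and aldehyde oxidation, had gaps of 3.21 and 3.59.

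Flavin monooxygenases, which oxidize nitrogen and sulfur in drugs, went in both directions. Fmo5 had 216 and 145 in liver, 48.6 and 65.8 in small intestine, 21.4 and 19.05 in kidney and 3.75 and 3.74 in lung (difference 3.33, SE 0.17, adjusted p = 4.26e-06). Fmo2 (chr1:162874317-162898726, minus strand) had 62.5 and 48.3 in kidney and 84.6 and 79.5 in lung against 4.06 and 3.04 in the liver and 2.27 and 2.79 in the small intestine, and its difference was -4.09 (SE 0.14, adjusted p = 1.08e-06).

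Conjugation was the xenobiotic list with the most separated genes, though its share of 35.2% was close to the 33.3% of the P450 list. Of 54 genes, 35 (64.8%, beside 10.5% of all genes tested) were called higher in liver and small intestine and 2 lower. With those organs higher 19 were separated (35.2%, beside 6.31%), 1 was separated the other way, and the median difference was 1.47. The glucuronosyltransferases included Ugt2a3, with 185 and 188 in the liver and 41.8 and 51.00 in the small intestine against at most 0.685 elsewhere (difference 6.10, SE 0.12, adjusted p = 8.71e-07), and Ugt2b34, with 169 and 158 and 125 and 145 against 5.56 and 5.85 in kidney. Ugt1a1, which conjugates bilirubin and whose promoter is shown above, had 15.9 and 10.7 in liver, 2.40 and 3.65 in small intestine and at most 0.0509 elsewhere. Ugdh, which makes the UDP-glucuronate they use, was separated too (gap 0.71). Sult1b1, a sulfotransferase of thyroid hormones and phenols, was led by small intestine at 138 and 165 against 13.8 and 11.9 in liver. Among glutathione transferases, Gstm3 was highest in small intestine with 273 and 461 against 90.2 and 61.6 in liver and below 2 elsewhere, whereas Gstp1 was highest in liver with 2470.2 and 2943 against 405 and 337, and had 152 and 245 in kidney. Mgst1, the microsomal transferase, had 2338 and 2131 in the liver and 86.8 and 110.0 in the small intestine, only just above the 72.3 and 69.3 of lung (gap 0.26).

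Transporters of drugs and organic ions were the xenobiotic list that leaned the other way. Of 28, 5 were called higher in liver and small intestine (17.9%, beside 10.5% of all genes tested) and 11 lower (39.3%, beside 9.65%), with 2 and 5 separated and a median of -0.65. The 5 calls were 3 without small intestine replicate 2. Slco2b1 and Abcc6 were separated with liver and small intestine higher. Slco3a1 and Slco4c1, both organic anion carriers, were higher in kidney and lung, with 18.5 and 20.02 and 5.02 and 4.09 in kidney and 6.87 and 7.89 and 4.41 and 3.35 in lung, against at most 1.54 and 0.103 on the other side. Kidney was over 2-fold above lung in 9 of the 11. Slc22a6, the anion exchanger of the proximal tubule, had 176 and 232 in kidney and below 1 in the other 6 libraries. Abcb1a, the multidrug pump of the gut wall, had 22.2 ± 13.01 in small intestine and 0.461 ± 0.0128 in liver and was called with overlap.

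**Figure D3:**
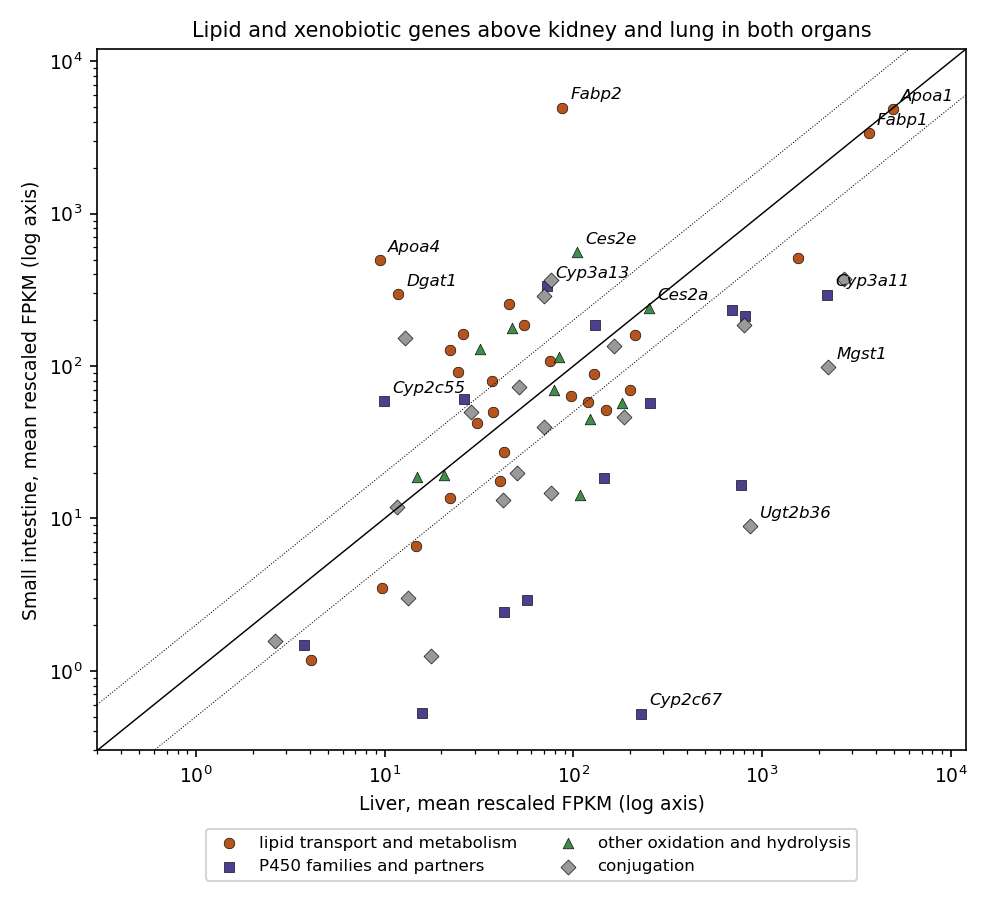
Mean rescaled FPKM (n = 2) of the called and separated lipid and xenobiotic genes in liver (x axis) and small intestine (y axis), both on log axes. The lists of bile acid genes and of transporters were not used for this figure. The solid line marks equal levels and the dotted lines a 2-fold difference, with Apoa1, Fabp1 and Ces2a near the solid line, Fabp2, Apoa4 and Dgat1 far on the intestinal side and Cyp2c67, Ugt2b36 and Mgst1 far on the liver side.

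Transcription factors of these programmes were shared by liver and small intestine in part. Of 38 tested, 25 were called higher in liver and small intestine and 0 lower, 13 were separated, of which Pparg was not called, and the median difference was 1.38. Creb3l3, a membrane-bound factor that activates apolipoprotein and other lipid genes (chr10:81084324-81098874, minus strand), had 129 and 115 in liver, 109 and 149.5 in small intestine, 0.196 and 0.347 in kidney and 0.244 and 0.113 in lung. The 2 organs were level with each other (log2 difference -0.07, adjusted p = 0.821), and their difference from the other side was 6.68 (SE 0.14, adjusted p = 8.71e-07). Nr1i2, the pregnane X receptor, which senses drugs and activates Cyp3a genes, had 37.8 and 23.9 in liver, 27.7 and 42.99 in small intestine, 1.81 and 1.58 in kidney and 0.465 and 0.333 in lung (difference 4.10, SE 0.19). Nr1i3, the related androstane receptor, was low, with 2.74 and 2.35 in the liver and 0.901 and 0.805 in the small intestine, and was listed at 0 on the other side. Foxa3, Gata4, Onecut2 and Nr5a2, factors of endodermal development, were each at or below 0.167 in kidney and lung and had gaps of 2.13, 1.93, 2.13 and 1.64.

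In contrast, Hnf4a, a hepatocyte nuclear factor, extended to kidney. It had 112 and 96.4 in liver, 53.3 and 75.9 in small intestine, 91.3 and 86.7 in kidney and 0.422 and 0.185 in lung, so that it was called (difference 2.93, SE 0.15) while kidney exceeded small intestine. Foxa1 and Foxa2 were found in lung at 6.31 and 5.77 and 9.14 and 9.68, above small intestine, and were not called. The intestinal factors Cdx1 and Cdx2 were high in small intestine alone, at 50.5 and 59.6 and 21.7 and 26.3.

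Short letter strings typical of the binding motifs of 3 factor families were counted on both strands of the 250 bases before each RefSeq start. RefSeq held a promoter for 432 of the 578 genes higher in liver and small intestine, for 543 of the 741 higher in kidney and lung, and for 10988 of the 16328 tested. The HNF4-type string CAAAGTCCA was in 8 (1.85%), 1 (0.184%) and 70 (0.637%) of them, and in 0.451% of all 27025 promoters of the table. The HNF1-type string GTTAATNAT was in 10 (2.31%), 4 (0.737%) and 88 (0.801%), and in 0.866% of all. The ETS-type string CAGGAAGT was in 22 (5.09%), 10 (1.84%) and 377 (3.43%), and in 3.13% of all. No string contains another. Of the 8 HNF4-type matches, 3 were in the neighbouring paralogues Cyp2c40, Cyp2c67 and Cyp2c68, whose windows resemble each other, and 1 in Cyp3a11. The matches are a description of these windows, and no match in the Apoa1 and Fabp1 windows says only that these letters were not there.

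Of the 19 function lists, plasma proteins had the highest share of calls, with almost no separation. Of 39, 37 were called higher in liver and small intestine and 0 lower, but liver was over 2-fold above small intestine in all 37, and a single gene was separated (2 genes on the deposited FPKM, without small intestine replicate 2 or without kidney replicate 2). Alb had 62914 and 46948 in the liver and 9.82 and 12.4 in the small intestine, below kidney at 15.1 and 56.9 and lung at 38.1 and 20.6. Mbl2, a mannose-binding lectin, was the exception, with 437 and 475 in the liver and 5.64 and 11.4 in the small intestine (1.87% of the liver mean), and at most 0.512 in kidney and lung. Leap2, which encodes an antimicrobial peptide and antagonist of the ghrelin receptor, was named by its gap of 5.34, with 65.3 and 106 in the liver and 134 and 102 in the small intestine and at most 0.639 elsewhere.

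Of 36 genes of sugar and amino acid metabolism, 29 (80.6%, beside 10.5% of all genes tested) were called higher in liver and small intestine and 0 lower. Liver was over 2-fold above small intestine in 21 of the 29 and small intestine over 2-fold above liver in 2. Of the 29, 20 overlapped between the sides and 9 were separated (25% of the list, beside 6.31% of all genes tested). The first steps of the urea cycle were shared, since Cps1, which makes carbamoyl phosphate, had 911 and 775 in liver, 77.2 and 72.5 in small intestine and at most 1.23 in kidney and lung (difference 7.33, SE 0.21, adjusted p = 9.81e-07). Otc, which makes citrulline, had 248 and 265 in the liver and 45.9 and 54.4 in the small intestine against at most 0.475, and Nags, which makes the activator of Cps1, had 19.4 and 20.1 and 13.4 and 12.4 against at most 0.140. The glucose carrier Slc2a2 and pyruvate kinase Pklr were separated as well, with kidney at 24.4 and 22.9 and 4.78 and 3.99 and lung below 1. The genes of gluconeogenesis G6pc, Fbp1 and Pck1 were called and not separated, since kidney reached 247 and 276, 534 and 704 and 582 and 360.4. Among dehydrogenases of steroids and retinoids on chromosome 10, Rdh7 (chr10:127884028-127888817, minus strand) and Hsd17b6 (chr10:127990936-128007611, minus strand) had gaps of 5.15 and 5.81. Rdh7 had 1366 and 1407 in the liver and 166 and 144 in the small intestine against at most 3.07, and Hsd17b6 had 169 and 96.2 and 69.4 and 84.3 against at most 0.251.

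Neighbouring genes were separated together in places. A run was defined as 3 or more genes that follow each other among those tested and were all called and separated in the same direction. There were 15 runs with 48 genes for liver and small intestine and 7 runs with 23 genes for kidney and lung. The longest held the 5 genes from Cyp2c29 to Cyp2c40 on chromosome 19. Others held Apoa1, Apoc3 and Apoa4 on chromosome 9, Cyp3a11, Cyp3a25 and Cyp3a59 on chromosome 5, Gstm7, Gstm6 and Gstm3 on chromosome 3 and Gstp1, Gstp2 and Gstp3 on chromosome 19. A run of 4 pancreatic amylase genes on chromosome 3 was high in small intestine alone. Amy2a2, for example, had 745 and 358 there and 0.960 and 1.12 in liver, against up to 0.954 in kidney. Summed markers of pancreatic acinar cells were 2955 and 1440.3 in small intestine, 30.6 and 25.3 in liver, 75.2 and 107.5 in kidney and 3.80 and 1.69 in lung, and their part in this run was not tested.

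Some separations rested on low levels in 1 of the organs. The lower organ of the higher side had under 2% of the level of the other in 55 of the 578 genes, with liver the lower in 45 and small intestine in 10, and in 22 of the 741. Without them 523 and 719 genes were left. Among listed genes these included the intestinal genes Sis, Lct, Tff3, Defa24 and Krt20, whose liver means were 0.233%, 0.191%, 0.385%, 0.230% and 0.167% of the intestinal ones. These shares are of the size of the low levels of other tissues' genes given above, whose part in these separations was not tested.

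On the side of kidney and lung, the gene with the widest gap was Napsa, which encodes the aspartic protease napsin A of alveolar type 2 cells and proximal tubules (chr7:44572380-44586862, plus strand). It had 405 and 722 in kidney and 54.5 and 47.9 in lung, against 1.79 and 2.33 in the liver and 2.30 and 1.56 in the small intestine. Kidney was the highest, and all 4 libraries of the pair were above 40 while the others were below 3 (difference -5.82, SE 0.21, adjusted p = 1.13e-06).

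Subunits of the epithelial sodium channel, which absorbs sodium in airways and collecting ducts, were separated as a set of 3. Scnn1b (chr7:121865038-121918514, plus strand) had 12.9 and 10.9 in kidney and 19.7 and 21.5 in lung and at most 0.0588 in the other 4 libraries. Scnn1g (chr7:121734479-121768475, plus strand) had 10.2 and 7.98 in kidney, 23.00 and 24.9 in lung and at most 0.199 elsewhere. Scnn1a had 22.04 and 16.1 in kidney and 36.3 and 33.97 in lung but also 10.6 and 7.08 in the liver and 2.42 and 2.41 in the small intestine. Lung was above kidney for each subunit, and the differences between the sides were -4.03 (SE 0.11), -3.86 (SE 0.12) and -2.22 (SE 0.16).

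Of 54 genes for transport of sodium, water, protons and bicarbonate, 31 were called higher in kidney and lung and 6 lower, 17 and 1 were separated, and the median was -1.19. The 31 calls were 20 without kidney replicate 2. The vacuolar proton pump subunit Atp6v1c2 had 7.68 and 7.71 in kidney and 10.7 and 11.4 in lung and at most 0.273 elsewhere (difference -3.14, SE 0.11). Atp6v0d2, a further subunit, had 9.59 and 7.30 and 7.35 and 5.18 in the same tissues. Subunits of the kidney intercalated cell, Atp6v0a4 and Atp6v1g3, were separated too, but their lung means were only 0.957% and 0.459% of the kidney means. The water channel Aqp1 of proximal tubules and capillaries had 342 and 376 in kidney and 157 and 176 in lung against 70.00 and 50.4 in the liver and 53.1 and 77.5 in the small intestine. Aqp8 was the separated member that went the other way, with 83.3 and 72.4 in liver, 39.03 and 12.7 in small intestine and below 1 elsewhere.

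Collagen IV and laminin genes, which build the basement membrane, were among the separated genes. Of 45 matrix genes, 18 were called higher in kidney and lung and 1 lower, and 16 were separated with kidney and lung higher. The 18 calls were 28 after the sum scaling. Col4a4, whose chain belongs to the network of the glomerular and alveolar membranes, had 17.7 and 10.6 in kidney and 6.93 and 7.54 in lung, against 0.224 and 0.175 in the liver and 0.0457 and 0.0558 in the small intestine. Its partner Col4a3 had 13.5 and 5.78 in kidney, 4.87 and 4.50 in lung and at most 0.239 elsewhere. The differences were -3.29 (SE 0.16) and -2.73 (SE 0.22), and Col4a5, the third chain of that network, differed by -2.07 (SE 0.15). The general chains Col4a1 and Col4a2 differed by -1.91 and -1.88, with gaps of -0.62 and -0.30. Npnt, a matrix ligand of kidney and lung development, had 25.5 and 23.2 in kidney and 46.5 and 53.01 in lung against at most 4.17 elsewhere.

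Endothelial genes were mostly called higher in kidney and lung, and mostly through lung. Of 38, 31 were called and 13 separated in that direction, 1 was called in the other, and the median was -1.88, while lung was over 2-fold above kidney in 28 of the 31. After the sum scaling 25 were separated. Podxl, a sialomucin of podocytes and endothelium, had 22.8 and 10.1 in kidney and 26.99 and 26.7 in lung against at most 2.05 elsewhere. Pecam1 and Cdh5 had 54.7 and 57.4 and 69.7 and 78.9 in lung, but kidney had 5.06 and 4.52 of Pecam1 and 3.55 and 2.92 of Cdh5, beside liver values of 4.90 and 3.03 and 7.78 and 6.004. Summed erythroid and cardiac muscle markers were highest in lung, while the erythroid sum of kidney replicate 1 lay below both liver libraries. The 6 erythroid markers summed to 10602 and 13146 in lung, 849 and 3366 in kidney, 1318 and 1248 in the liver and 297.1 and 95.5 in the small intestine, and cardiac muscle markers summed to 142.7 and 140.1 in lung and to at most 8.97 elsewhere. Their part in the endothelial result was not tested.

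Of the other genes named by their gaps, Ly6a, an antigen of endothelium and stem cells, had 344 and 587 in kidney and 355 and 352 in lung against at most 32.4. Irx1, a homeobox gene (chr13:71957921-71963723, minus strand), had 7.73 and 9.97 in kidney, 11.7 and 11.9 in lung and at most 0.118 elsewhere, and Irx2 and Irx3, picked after their values were seen, had gaps of -2.16 and -2.81. Ldhb, the heart-type lactate dehydrogenase subunit, had 673 and 872 in kidney and 49.5 and 51.3 in lung against at most 5.56 elsewhere (difference -5.17, SE 0.13, adjusted p = 9.81e-07). Gpx3, a secreted glutathione peroxidase, was dominated by kidney with 12414 and 15546, beside 244 and 322 in lung and 26.8 to 35.6 on the other side. Cryab, a small heat shock protein, had 36.96 and 66.6 in kidney and 57.5 and 67.6 in lung against at most 3.94 elsewhere. Plxdc2 had 9.99 and 11.8 in kidney and 12.3 and 11.3 in lung, Galnt18 had 12.1 and 13.4 and 25.9 and 31.4, and all liver and intestine values of both genes were below 1.

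**Figure D4:**
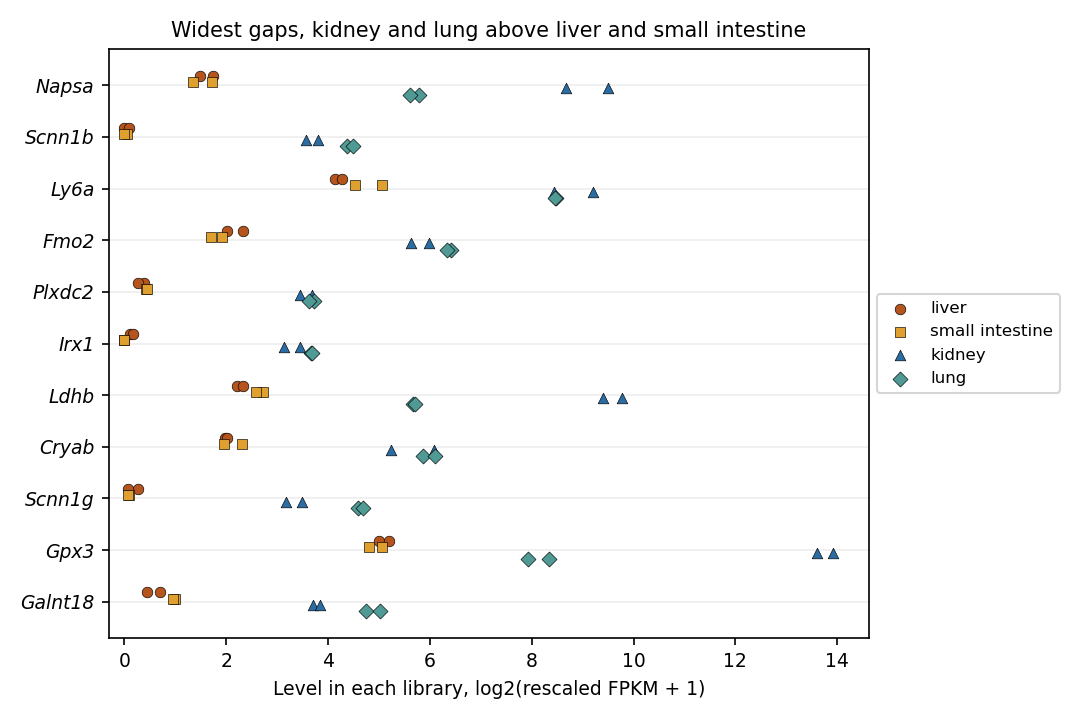
Level in every library of 11 of the 12 genes named for the widest gaps on the side of kidney and lung. These were picked among genes with a mean FPKM of at least 10 on that side, without Gm, Rik and mitochondrial symbols. Values are log2(rescaled FPKM + 1), for liver (circles), small intestine (squares), kidney (triangles) and lung (diamonds). All kidney and lung points lie to the right of the liver and intestine points in each row, with gaps from 3.88 (Napsa) to 2.73 (Galnt18).

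Keratins, claudins and adhesion genes were divided. Of 42, 14 (33.3%) were called higher in liver and small intestine and 10 (23.8%) lower, beside 10.5% and 9.65% of all genes. In each direction 9 (21.4%) were separated, beside 6.31% and 8.36% of all genes, and the median was 0.40. Krt8 and Krt18, the keratin pair of simple epithelia, were higher in liver at 164 and 121 and 116 and 102 and in small intestine at 901 and 1146 and 66.5 and 62.03 than in the other tissues, where they were at most 56.5 and 25.5. Krt7, a keratin of ducts, was higher in kidney at 9.18 and 8.98 and lung at 19.4 and 17.5 against 4.87 and 4.21 in small intestine and 0.281 and 0.307 in liver. Cldn3 and Cldn10, which set the tightness of junctions, were separated in opposite directions, with differences of 2.71 and -4.16. Of 24 genes of mesenchyme, pericytes and mesothelium, 14 (58.3%) were called higher in kidney and lung and 1 (4.17%) lower. Separated were 7 (29.2%) and 1 (4.17%), and the median was -1.19. Lung was over 2-fold above kidney in 11 of the 14 and kidney over 2-fold above lung in 2. Tbx2, a T-box factor, had 9.24 and 9.23 in kidney and 24.7 and 30.95 in lung against at most 1.69 elsewhere. In the renin-angiotensin list, 7 of 15 (46.7%) were called higher in liver and small intestine and 3 (20%) lower. Of the 15, 1 and 0 were separated, and the median was -0.07.

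**Figure D5:**
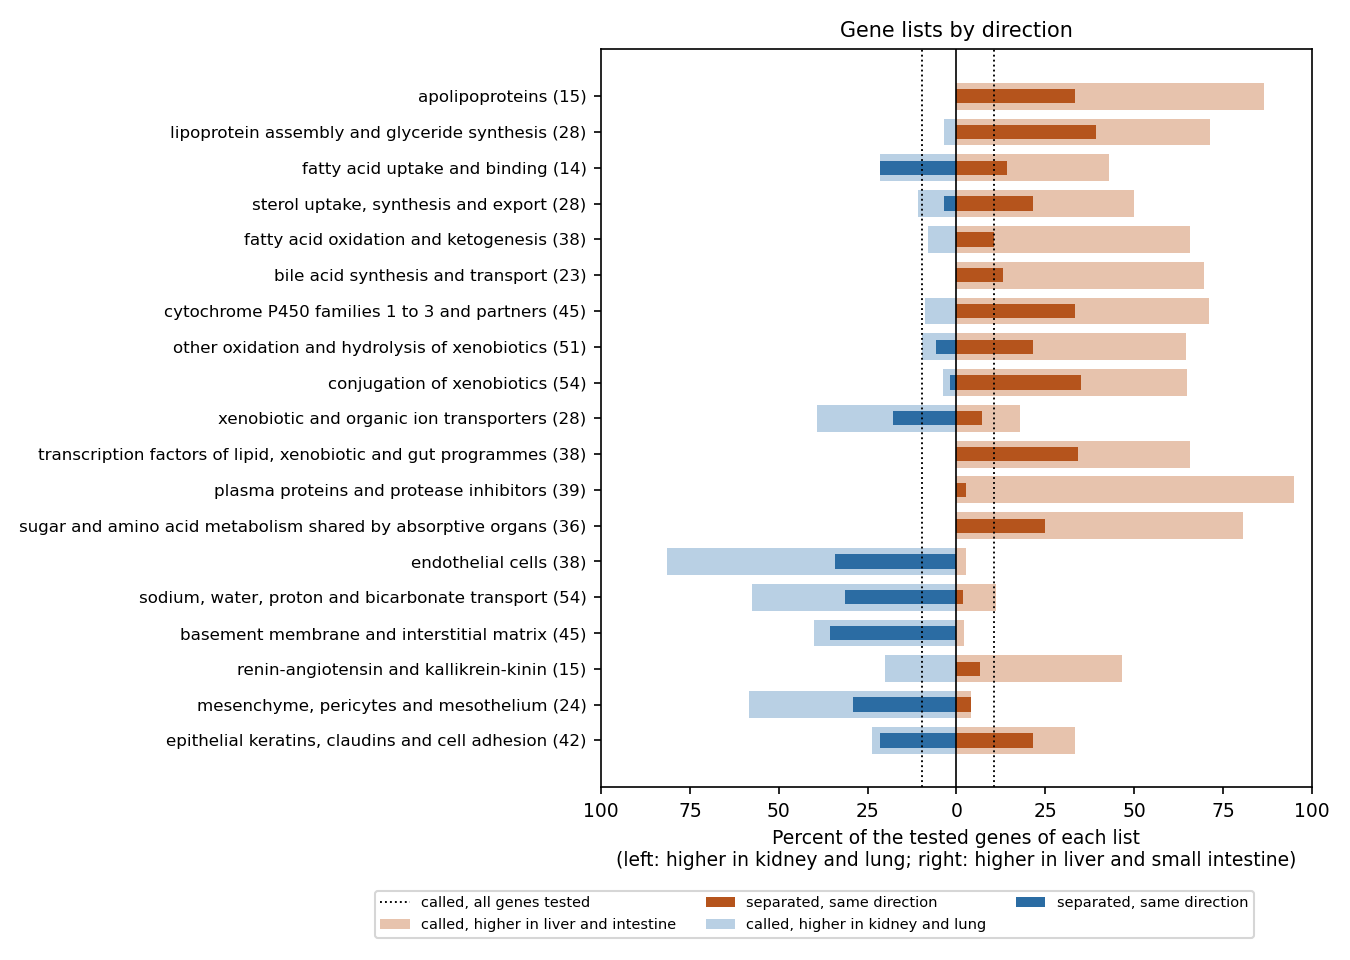
Percent of the tested genes of each list (their number in parentheses) called by limma (pale bars) and separated (dark bars), to the right for liver and small intestine higher and to the left for kidney and lung higher. Dotted lines mark the percent called among all genes tested (10.5 and 9.65). Plasma proteins combine the longest pale bar with a short dark one. Among the lists of liver and small intestine functions, only transporters have a longer pale bar to the left than to the right. Fatty acid uptake and binding has a longer dark bar to the left (21.4%) than to the right (14.3%).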

How the data were processed

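Polyadenylated RNA of 4 mouse tissues was sequenced as 2 libraries each. The authors selected reads by sample index with bbduk, mapped them with STAR 2.5.3a to the Ensembl mouse genome (GRCm38), and used the DESeq2 function fpkm to make the deposited FPKM values of 52195 genes. The program that counted reads, its use of strand and its treatment of multi-mapping reads are not given in the sources used here. FPKM moves with the few most abundant transcripts of a library.

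The deposited FPKM values were divided by a factor per library (median of ratios over 15137 genes above 0 in all libraries). Genes with a deposited FPKM, before this division, of at least 1 in at least 2 libraries were kept. Log2 values with a pseudocount of 1 were fitted in limma 3.58.1 (R 4.3.3) with 1 mean per tissue and a mean-variance trend, and the contrast was the mean of liver and small intestine minus that of kidney and lung. Multiplied by exon lengths of GENCODE M21, 94.5% to 96.1% of low values per library (up to 50 reads) were whole multiples of 1 read within 0.02 reads, which gave the depths. Coordinates are from GENCODE M21 (GRCm38), where 51847 of the 52195 symbols matched 1 gene.

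The named genes were, in each direction, the 12 with the widest gap among those called and separated with a mean FPKM of at least 10 on the higher side, leaving out Gm and Rik symbols and mitochondrial genes. Results of some of these and of the listed genes are not reported here. The named genes were joined by genes of 19 function lists and 19 cell type marker lists. The members and lists were chosen with earlier results of these data known. The study's results section states that the 2 libraries of a tissue come from separate mice. Alternatives changed the pseudocount, filter, scaling, model and libraries. voom was run on recovered reads of 16186 genes.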

Additional observations from a re-analysis of the deposited data

Results flagged for a closer look

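In 14 listed genes liver and small intestine differed from the mean of kidney and lung in opposite directions, each by over 8-fold (3 on the log2 scale), which the mean of both organs does not show. Because the genes were chosen for these opposite differences, liver differs from small intestine in each of them by choice, and the values of 13 are given as a description, with no test (n = 2 libraries per tissue). Liver was above small intestine by 11.34 on the log2 scale for Serpina1d, a protease inhibitor of plasma with near-identical paralogues, and by 9.77 for the haemoglobin-binding protein Hp. Among cytochromes P450 it was above by 10.16 for Cyp2d9, 9.90 for Cyp2e1, 9.06 for Cyp2f2, 8.08 for Cyp2a5, 7.67 for Cyp2j5 and 6.71 for Cyp7b1. In amino acid breakdown and the urea cycle the difference was 8.59 for Ass1, 8.22 for Hgd and 7.15 for Fah, and it was 6.77 for Aldh8a1. For Apom, an apolipoprotein, it was 8.09. These 13 genes had small intestine below the mean of kidney and lung.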

How the results depend on the processing

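The counts moved most with the scaling and the model. Called genes, with liver and small intestine higher and lower, were 1124 and 3121 on the deposited FPKM, 1033 and 3637 after scaling to the sum without mitochondrial genes, 221 and 312 in a fit of 2 groups, 0 and 0 on tissue means, and 2416 and 2957 in voom on recovered reads. With a pseudocount of 0.1 they were 2320 and 3089. Separated genes were 334 and 2151 on the deposited FPKM, 251 and 3389 after the sum scaling, 754 and 747 with a minimum FPKM of 5, and 165 and 173 with a gap of at least 1. A rule chosen after seeing the data, that all 4 pairwise tissue differences pass, left 215 and 265 called. Leaving out each library in turn gave 1507 to 1847 and 1298 to 1676 called genes, and 1105 to 1549 and 1217 to 1923 separated ones, with 1549 without kidney replicate 2. The causes were not tested, except that fewer genes enter under the stricter filter and gap. The log2 differences of the 12 genes named in each direction, which were chosen for wide gaps, kept direction and call in 431 of 456 checks. Of the other 25, 24 were on tissue means and 1 was Gpx3 in the fit of 2 groups, and 0 reversed. List counts, computed for the pseudocount, filters, scalings and left-out libraries and not for the other models, stayed within 1.5 times in 507 of 532 checks. Each list was checked only in the direction of its own side, so transporters called higher in kidney and lung were not checked. The replicate block gave 1723 and 1575 called genes. Deviations of same-numbered libraries had correlations of -0.22 to 0.03 between tissues, so the numbers were not taken as pairs. Depth limits values under the floor of 3 reads.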

Other observations

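Markers of other cell types were called in both directions, in places through a single tissue, beside 10.5% of all genes tested called higher in liver and small intestine and 9.65% called higher in kidney and lung. All 9 pancreatic acinar markers tested were called higher in liver and small intestine, each led by small intestine, and all 6 goblet and Paneth cell markers were too. Of 5 markers of liver sinusoidal endothelium, 3 were called higher and 0 lower. All 6 cardiac muscle markers tested and 5 of 6 erythroid markers were called higher in kidney and lung, and 3 of 6 markers of B and plasma cells and 2 of 5 of neutrophils were too. The 6 T cell markers had a median log2 difference of 0.03, with summed FPKM of 23.38 and 23.00 in small intestine and 26.01 and 27.72 in lung, against 1.65 to 2.03 in liver and kidney. Of 6 macrophage markers 2 were called higher in liver and small intestine, and of 6 visceral smooth muscle markers 1 was, counts too small to set apart from that share. The median difference was -0.55 for the 3 adipocyte markers tested and 0.12 for the 1 of adrenal cortex. Among markers of the tissues themselves, 5 of 6 hepatocyte and 6 of 6 enterocyte markers were called higher in liver and small intestine, and 5 of 6 proximal tubule, 6 of 6 distal nephron, 6 of 6 alveolar type 2, 5 of 6 alveolar type 1 and 3 of 4 club cell markers were called higher in kidney and lung.

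Among kidney and lung genes, a run of neighbours on chromosome 11 held Hoxb4, Hoxb5, Hoxb6 and Hoxb5os, all homeobox genes or an antisense transcript of the anterior-posterior axis. Hoxb4 had 6.42 and 3.02 in kidney and 4.41 and 5.76 in lung against 0.724 to 1.63 on the other side. Hoxb6 was led by kidney with 8.32 and 9.03, beside 0.864 and 1.25 in lung. Hoxb5os and Hoxb5 overlap, and without strand in the counting their reads cannot be told apart. A second run on the X chromosome held the retrotransposon-derived genes Rtl8a, Rtl8b and Rtl8c, where Rtl8a had 90.5 and 86.8 in lung and 17.6 and 28.2 in kidney against 6.51 to 9.42 elsewhere. Counts of Rtl8a and Rtl8b are uncertain, as the genes are near-identical copies.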
